A study of Mus musculus with 8 samples.

Results

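Messenger RNA levels were compared between iBMDM cells, an immortalized line of mouse bone marrow macrophages of wild-type genotype, that received disulfiram (DSF) and then lipopolysaccharide (LPS) and cells that received DSF alone. The comparison takes 4 of the 8 libraries of the study, 2 in each group, and all 16304 genes that passed the filter on low counts. DSF libraries came from cells given 5 μM DSF for 0.5 h and then water for 4 h, and DSF+LPS libraries from cells given the same DSF exposure and then 1 μg/ml LPS for 4 h. Both groups of this comparison therefore carry the drug, and it shows what LPS changed in its presence. For the LPS response without the drug, set beside it throughout, LPS libraries (solvent DMSO, then LPS) were compared with control libraries (DMSO, then water), 2 in each group, with the same times. The 2 responses share no library. Whether the numbered samples within a group came from different cultures is not said, so p-values reflect only the variation among these libraries, possibly technical.

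LPS, a component of the outer membrane of Gram-negative bacteria, is carried by CD14 to the receptor TLR4 and its partner MD-2 (gene Ly96). The adaptor MyD88 leads from the receptor to NF-kB and MAP kinases and to early cytokine and chemokine genes, while TRIF, reached through the bridging adaptor TRAM (gene Ticam2), leads to IRF3, interferon-β and, through its receptor and the transcription factor ISGF3, to interferon-stimulated genes. DSF, given to people with alcohol dependence, blocks aldehyde dehydrogenase, and its metabolites bind copper and react with thiols. The study's stated question was whether DSF inhibits the signalling that LPS starts at TLR4, and its title names MD-2 as the target.

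Library totals were between 17822041 and 21694922 counts over the 8 libraries, and those of the DSF (21694922 and 19372143) and DSF+LPS (21033085 and 19637058) groups overlapped. The replicates of the DSF+LPS group were the least alike, with a median absolute difference of 0.198 on the log2 CPM scale between the 2 libraries, against 0.152 for DSF, 0.118 for control and 0.117 for LPS. Macrophage markers were read in all DSF-treated libraries, though several stood lower than without the drug. CPM in this paragraph are counts scaled to the plain library total. The pan-leukocyte gene Ptprc stood between 117 and 142 CPM (269 to 321 without the drug) and Csf1r between 451 and 542 (759 to 895). Spi1 stood between 179 and 238 (257 to 470), Itgam between 25.3 and 30.5 (38.1 to 45.3) and Fcgr1 between 9.32 and 12.2 (45.4 to 51). Cd68, between 748 and 900 (516 to 642), stood higher. Lyz2 (483 to 556), Adgre1 (81.8 to 105) and Mertk (1.22 to 2.24, near the floor) overlapped with the libraries without the drug. Markers of other cells were scarce in the DSF-treated libraries. The summed level was 0.662 to 1.96 CPM for 10 neutrophil markers (S100a9 at 0), 2.48 to 4.18 for 8 dendritic cell markers, 2.95 to 5.42 for 11 lymphocyte markers (Cd3e, Cd3g and Cd8a at 0), 2.6 to 3.78 for 8 fibroblast markers and 8.1 to 11.8 for 7 epithelial and endothelial markers. Few of these markers passed the filter on low counts: 1 neutrophil, 4 dendritic cell, 3 lymphocyte, 1 fibroblast and 3 epithelial and endothelial markers. None of those passed the test between DSF+LPS and DSF, and the others were not tested. In bulk RNA, fewer cells of a kind and less RNA per cell cannot be told apart.

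Under the drug, LPS still raised cytokine, chemokine and NF-kB feedback genes, but most by less than in cells without the drug. Of 56 interferon-stimulated genes, all raised without the drug, 9 rose and 7 fell under it, beside 5.53% and 6.53% of all genes. Their median log2 change was -0.11 under the drug and 2.49 without it, against -0.003 and 0.017 over all genes. Of 13 mitochondrially encoded transcripts 12 fell, and none passed the test with LPS alone. In total 901 genes (5.53% of those tested) rose and 1065 (6.53%) fell at an adjusted p under 0.05 in edgeR's quasi-likelihood test, and 105 (0.644%) rose and 39 (0.239%) fell by at least 2-fold. LPS without the drug raised 2485 genes (15.2%) and lowered 2246 (13.8%), of which 872 (5.35%) and 594 (3.64%) changed by at least 2-fold. Of the genes raised under DSF, 473 were also raised without it, which is 52.5% of the former and 19% of the latter. The shared falls numbered 335, or 31.5% of those under DSF and 14.9% of those without. The number of calls depended on which libraries were fitted. It was lowest without DSF replicate 1, and a fit on the 4 DSF-treated libraries alone called 324 genes up and 200 down. The main fit shares its estimate of spread over all 8 libraries, and the control and LPS replicates were more alike than those compared here. In all, 233 rises and 137 falls were called whichever of the 8 libraries was left out. The split between rises and falls depended on scaling, since scaling by library size alone shifted the genes' median log2 fold change by -0.106 and gave 464 rises and 2190 falls. CPM values of genes below are scaled with TMM, whose factors were 0.9342 to 1.085, and so differ a little from counts over the library total. A gene is said below to have risen or fallen only where it passed the test over all 8 libraries, and fold changes are given with log2 values and their standard errors (SE).

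**Figure D1:**
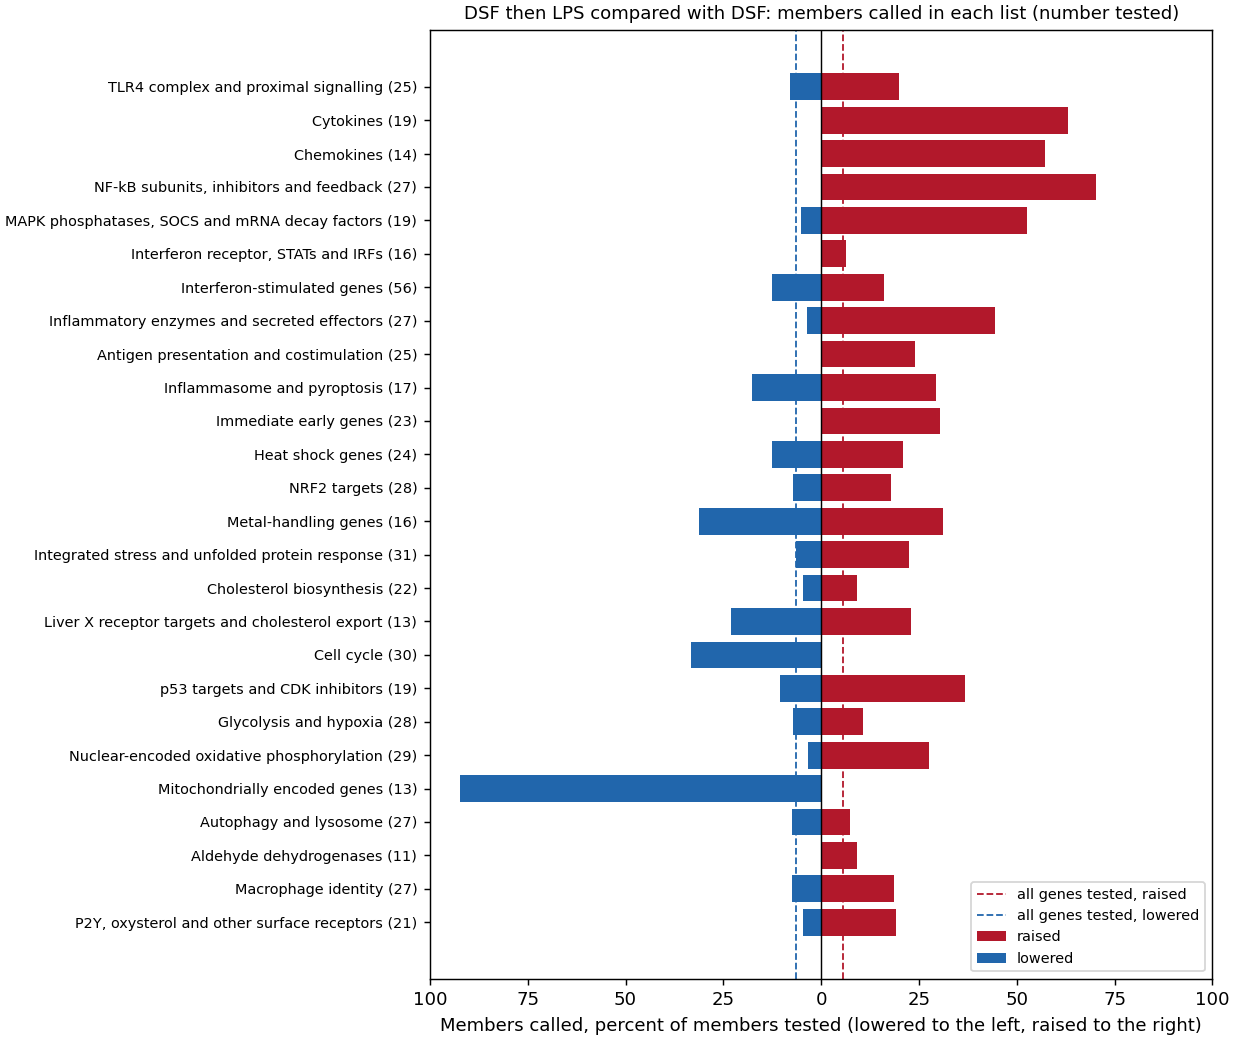
Percent of tested members of each of 26 gene lists that were raised (right, red) or lowered (left, blue) in DSF+LPS compared with DSF, with the number tested in brackets; the dashed lines mark all genes tested, 5.53% raised and 6.53% lowered. NF-kB, cytokine and chemokine genes reach far to the right, and 12 of 13 mitochondrially encoded genes are on the left.

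Promoters of 5 genes, chosen with their values known, are shown as examples of 2 promoter motifs. They are Cxcl2 and Nfkbia (38.1-fold and 4.23-fold up under DSF), Ifit1 and Rsad2 (1.32-fold and 1.33-fold) and Cxcl10, which carries motifs of both kinds. Which arm of LPS signalling acts on them in these cells was not tested. Each run holds the 250 bases before the RefSeq start on GRCm38.p6, 5′ to 3′ on the gene's strand, with capitals marking matches to the kB consensus in Cxcl2, Nfkbia and Cxcl10 and to the core of the interferon-stimulated response element (ISRE, GAAANNGAAA) in Ifit1, Rsad2 and, as the first of its 3 capital runs, Cxcl10.
Cxcl2, chr5:90903649-90903898, plus strand: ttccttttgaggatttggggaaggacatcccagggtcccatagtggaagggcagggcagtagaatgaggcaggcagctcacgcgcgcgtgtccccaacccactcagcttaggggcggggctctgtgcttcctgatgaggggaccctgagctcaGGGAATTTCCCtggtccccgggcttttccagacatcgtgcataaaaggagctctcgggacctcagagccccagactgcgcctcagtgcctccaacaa
Nfkbia, chr12:55492648-55492897, minus strand: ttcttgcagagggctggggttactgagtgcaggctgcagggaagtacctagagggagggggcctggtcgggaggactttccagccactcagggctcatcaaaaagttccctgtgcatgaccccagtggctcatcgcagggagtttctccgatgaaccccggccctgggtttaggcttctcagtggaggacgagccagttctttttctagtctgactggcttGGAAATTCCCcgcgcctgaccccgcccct
Cxcl10, chr5:92348890-92349139, minus strand: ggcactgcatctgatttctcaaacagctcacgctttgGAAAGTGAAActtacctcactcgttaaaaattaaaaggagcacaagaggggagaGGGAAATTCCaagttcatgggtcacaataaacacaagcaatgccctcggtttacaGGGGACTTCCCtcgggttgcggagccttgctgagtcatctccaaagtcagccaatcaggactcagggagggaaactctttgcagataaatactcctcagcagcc
Ifit1, chr19:34640639-34640888, plus strand: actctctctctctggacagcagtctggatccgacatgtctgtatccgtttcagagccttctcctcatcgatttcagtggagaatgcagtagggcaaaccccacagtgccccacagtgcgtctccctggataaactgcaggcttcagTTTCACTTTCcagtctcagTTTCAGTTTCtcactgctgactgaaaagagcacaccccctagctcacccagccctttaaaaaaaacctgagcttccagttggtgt
Rsad2, chr12:26456453-26456702, minus strand: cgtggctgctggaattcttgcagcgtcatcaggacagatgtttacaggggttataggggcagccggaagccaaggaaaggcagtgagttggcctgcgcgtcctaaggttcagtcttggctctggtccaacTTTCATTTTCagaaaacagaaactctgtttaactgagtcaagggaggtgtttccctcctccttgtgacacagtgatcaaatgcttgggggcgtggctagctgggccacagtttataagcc
Both strands were searched, counting back from -1 as the base before the start. Cxcl2 held overlapping kB matches from -97 to -87 and Nfkbia one from -29 to -20. In Cxcl10 the ISRE core lay at -213 to -204, and kB matches at -159 to -150 and -104 to -94. Ifit1 held ISRE cores at -104 to -95 and -85 to -76, and Rsad2 one at -120 to -111, all on the strand opposite to transcription. Over the 27025 genes with a promoter in the RefSeq table, 8.23% held a kB match and 3.46% an ISRE core in such a window. A match describes the letters and is not evidence of binding.

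Of the genes of the receptor complex itself, Tlr4 fell, Cd14 rose and Ly96 showed no called change. Tlr4, the receptor, stood at 33.5 and 31.1 CPM in the DSF libraries and 21.1 and 20.5 in the DSF+LPS libraries. Both libraries with LPS were below both without, and Tlr4 fell on the log2 scale (-0.63 ± 0.12 SE, adjusted p = 0.00351), as it did without the drug (-0.83). Ticam2, encoding TRAM, fell from 5.34 and 4.49 to 2.88 and 2.35 CPM (-0.91 ± 0.24 SE, adjusted p = 0.0229). Ly96 did not pass the test, with 8.06 and 8.11 CPM against 8.02 and 6.99. The co-receptor gene Cd14 rose from 131 and 117 to 150.3 and 189 CPM, 1.37-fold (0.45 ± 0.10 SE, adjusted p = 0.00909), where LPS alone took it from 40.8 and 40.5 to 324 and 306, 7.74-fold. Among the kinases and adaptors, the largest rise was that of Ikbke, the inducible kinase IKKε, from 14.8 and 16.7 to 70.2 and 84.5 CPM, or 4.91-fold (2.30 ± 0.11 SE, adjusted p = 6.41e-09). Myd88 rose 1.48-fold and the IRAK family genes Irak2 and Irak3 1.52-fold and 1.34-fold, Irak3 being a brake on the pathway. In all, 5 of 25 tested genes of the TLR4 complex and its proximal signalling rose and 2 fell, with a median log2 change of -0.02 against -0.003 over all genes. The falls of Tlr4 and Ticam2 were lost without DSF replicate 1 (adjusted p = 0.0502 and 0.191), and that of Ticam2 also without DSF+LPS replicate 2. The rise of Irak3 was lost on leaving out any of 6 of the 8 libraries, with an adjusted p of up to 0.336.

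Most cytokine genes rose under DSF. Of 19 tested, 12 rose (8 by DESeq2) and none fell, with a median log2 change of 0.64, while all 19 rose without the drug, with a median of 4.65. Tnf stood at 46.3 and 54.6 CPM with DSF and 202 and 259 with DSF+LPS, 4.57-fold higher (2.19 ± 0.11 SE, adjusted p = 1.08e-08). Control and LPS libraries held 37 and 38.1 and 833 and 849.9 CPM, so the level with both agents lay between DSF and LPS alone without overlap. Il1b, which encodes pro-interleukin-1β, went from 0.634 and 2.53 to 10.6 and 13.9 CPM (7.98-fold, 3.00 ± 0.36 SE, adjusted p = 0.00011), against 608 and 576 with LPS alone. Its DSF libraries were unequal, and the log2 change was 2.28 without DSF replicate 1 and 4.27 without DSF replicate 2. Csf3, the granulocyte colony-stimulating factor gene, rose 25.1-fold, from 0.362 and 0.465 to 9.03 and 12 CPM (4.65 ± 0.26 SE, adjusted p = 4.84e-08), and reached 243 and 241 CPM with LPS alone. Il6 rested on few reads, 7 and 12 in the DSF and 59 and 73 in the DSF+LPS libraries, and rose 7.47-fold (2.90 ± 0.44 SE, adjusted p = 0.00102). These 4 genes kept their calls whichever library was left out.

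Lif, of the interleukin-6 family, rose from 3.58 and 3.87 to 17.2 and 13.8 CPM (4.16-fold, 2.06 ± 0.18 SE, adjusted p = 5.31e-06). Il1rn, the interleukin-1 receptor antagonist, rose 1.56-fold, from 102 and 94 to 139 and 167 CPM. Il1a rose 3.23-fold, from 0.906 and 2.32 to 5.45 and 4.75 CPM, with a log2 change of 1.69 that was 1.14 without DSF replicate 1, where the call was lost (adjusted p = 0.0958), and 2.50 without DSF replicate 2. Il10, an anti-inflammatory cytokine, did not pass the test: DSF libraries already held 3.21 and 4.34 CPM, against 5.35 and 5.64 with LPS alone, and DSF+LPS libraries 4.84 and 5.89. Il12b, a subunit of interleukins 12 and 23, had 1 and 4 reads in the DSF libraries and 1 and 4 in the DSF+LPS libraries, while the LPS libraries stood at 8.2 and 8.27 CPM. Thus Il12b showed no rise detectable at this depth. Without DSF replicate 1, 7 of the 12 cytokine rises stood.

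Among the chemokines, Cxcl2 reached its full level. This neutrophil attractant showed the largest rise of any gene named here, from 41.1 and 46.3 to 1445 and 1882 CPM, 38.1-fold (5.25 ± 0.12 SE, adjusted p = 1.94e-12). The level with both agents was that of LPS alone (1532 and 1578 CPM), with overlapping libraries. The response was still smaller on the log2 scale by -4.17 (adjusted p of the difference = 2.33e-09), and control libraries started at 1.97 and 2.53 CPM. Cxcl10, a T-cell attractant with kB and ISRE letters in its promoter as printed above, rose from 17.7 and 24.8 to 98.9 and 90.4 CPM (4.47-fold, 2.16 ± 0.12 SE, adjusted p = 4.76e-08) but reached 1009 and 885 without the drug. Ccl5 rose 3.33-fold, from 6.07 and 7.18 to 21.4 and 22.6 CPM, Ccl4 3.23-fold, Ccl3 2.67-fold and the monocyte attractant Ccl2 1.88-fold. With LPS alone these 4 rose 28.2-fold, 25.1-fold, 24.4-fold and 14.2-fold. Ccl9 did not pass the test, with 92.2 and 90 CPM against 96.5 and 87.3, although LPS alone raised it from 193 and 189 to 903 and 915. In all, 8 of 14 tested chemokine genes rose and none fell, with a median log2 change of 1.16 against 4.74 without the drug. Leaving out DSF replicate 1 kept 7 of the 8.

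**Figure D2:**
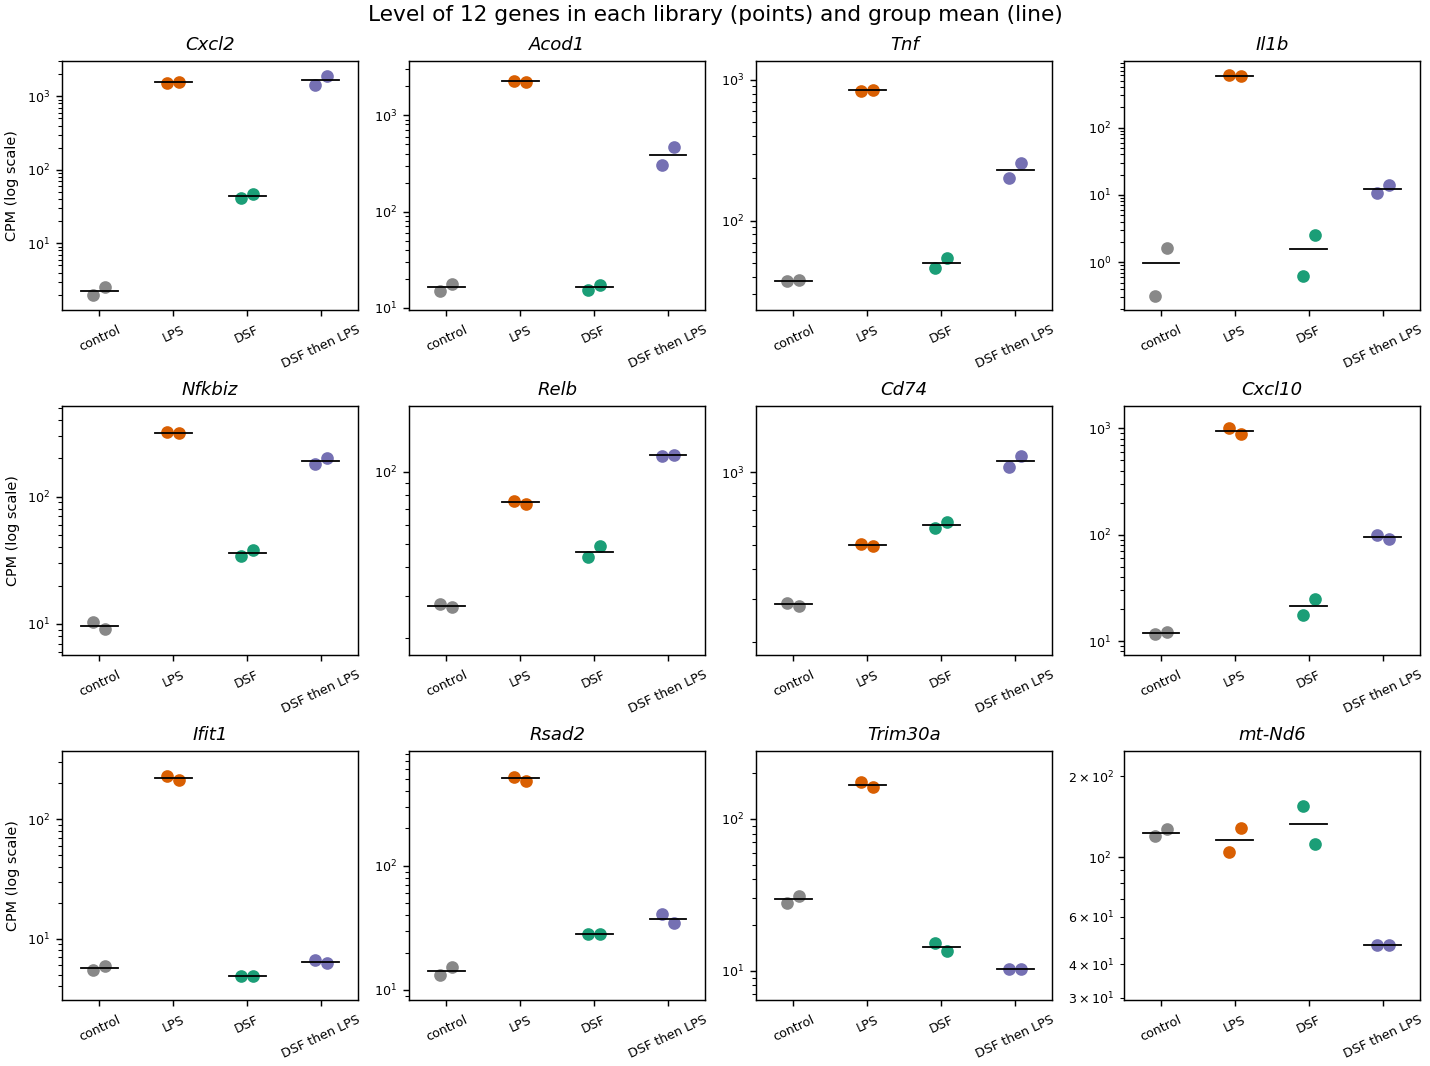
CPM of 12 genes on a log axis in each library (points, 2 per group) with the group mean (line), for control, LPS, DSF and DSF then LPS. Cxcl2 with both agents reaches the level of LPS alone, Relb and Cd74 exceed it, Ifit1 stays near its DSF level, Trim30a falls below it, and mt-Nd6 is low only in the DSF+LPS libraries.

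NF-kB genes were the list with the highest share raised. Of its 27 tested genes, subunits, inhibitors and feedback regulators, 19 rose and none fell, and 14 of the 19 stood without DSF replicate 1. The median log2 change was 0.78 under DSF and 1.55 without it. The 2 responses differed, by the interaction test, in 16 genes, 15 of them with the log2 response lower under DSF. Nfkbia, the inhibitor IκBα whose promoter carries the kB match shown, rose from 30.9 and 34.9 to 125 and 154 CPM (4.23-fold, 2.08 ± 0.10 SE, adjusted p = 1.29e-08). Nfkbiz, the nuclear inhibitor family member IκBζ, rose from 34.1 and 38.1 to 182 and 200.4 CPM (5.3-fold, 2.41 ± 0.09 SE, adjusted p = 6.43e-10), and the adaptor gene Traf1 from 20.5 and 22.4 to 96.3 and 115 (4.94-fold, 2.30 ± 0.11 SE, adjusted p = 6.41e-09). Tnfaip3, the ubiquitin-editing inhibitor A20, rose 3-fold, to 46.3 and 51.7 CPM, against 125 and 116 with LPS alone.

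For several NF-kB genes no difference between the responses with and without the drug passed the test. Relb, a subunit of the non-canonical pathway, rose 2.54-fold under DSF, from 43.8 and 48.8 to 117 and 118 CPM, and 2.72-fold without it, from 27.7 and 27.1 to 75.4 and 73.6. The difference between the responses was -0.10 ± 0.12 SE on the log2 scale (adjusted p = 0.635), and Relb started higher with DSF than in control and ended higher with both agents than with LPS alone. The inhibitor Nfkbib rose 1.91-fold and 1.94-fold, with a difference of -0.02 ± 0.13 SE. Tnip3, an A20-binding inhibitor, rose 2.97-fold and 2.93-fold, with a difference of 0.02 ± 0.14 SE, from a lower start under DSF (9.69 and 10.2 CPM against 42.9 and 42.2 in control), and it ended at 27.4 and 31.8 CPM against 120.4 and 129. Rela, the p65 subunit, rose 1.3-fold and 1.32-fold, the first a call lost without DSF replicate 1 (adjusted p = 0.101). An adjusted p over the threshold does not show the responses to be equal. Tnfaip2 went the other way: it rose 3.62-fold with LPS alone and stood at 163 and 141 CPM with DSF and 151 and 174 with DSF+LPS (adjusted p = 0.506).

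Negative regulators of signalling and of mRNA stability also responded. Zc3h12a, the RNase Regnase-1 that degrades cytokine mRNA, rose from 19.4 and 22.4 to 82.1 and 90.4 CPM (4.13-fold, 2.05 ± 0.09 SE, adjusted p = 6.41e-09), against 143 and 143 with LPS alone. Its relative Zc3h12c rose 2.39-fold, to 44.6 and 66 CPM. Socs3, a cytokine signalling inhibitor, rose 1.79-fold (0.84 ± 0.16 SE, adjusted p = 0.00432), from 17.7 and 21.6 to 42.4 and 27.7 CPM, while LPS alone took it to 264 and 242. Socs1 did not pass the test, with 4.26 and 5.73 against 7.42 and 6.88 CPM. Dusp10, a phosphatase of the MAP kinases p38 and JNK, stood at 13.6 and 16.6 CPM with DSF, above the control 1.86 and 1.96, and rose to 24.2 and 25. Zfp36l2, an mRNA decay factor, was the one member of its list to fall, from 281 and 267 to 180.2 and 203 CPM. In this list 10 of 19 tested genes rose and 1 fell, with a median log2 change of 0.52 against 0.96 without the drug. Without DSF replicate 1, 4 rises remained past the threshold, and those of Socs3 (adjusted p = 0.074) and Dusp10 (0.105) did not.

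Of 23 tested immediate early genes 7 rose and none fell (2 without DSF replicate 1), with a median log2 change of 0.39 against 1.08. Ier3 rose from 70 and 64.9 to 154 and 166 CPM (2.37-fold, 1.25 ± 0.08 SE, adjusted p = 1.14e-07). Maff, a small Maf transcription factor, rose 1.63-fold, from 105 and 126 to 197 and 179 CPM, both above the 39.7 and 38.7 of LPS alone. Junb rose 1.43-fold, from 366 and 392 to 609 and 476 CPM, a call lost without DSF replicate 1 (adjusted p = 0.0504). Egr1 was high in all DSF-treated libraries, at 95.6 and 121 CPM without and 157 and 109 with LPS, overlapping values that did not pass the test, and under 3 CPM in the other 4 libraries.

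Interferon-stimulated genes rose in full without the drug and in few cases with it. Of 56 tested interferon-stimulated genes, which without the drug all rose with a median log2 change of 2.49, 9 rose and 7 fell under DSF, with a median of -0.11. The interaction test passed in 54 of the 56, always with the log2 response lower under DSF (a smaller rise, no rise or a fall). Over all genes, 12.2% had a negative difference. Scaling by library size alone gave 7 rises and 16 falls, and leaving out DSF replicate 1 gave 2 and 2, so the direction of the small changes within the list is not settled by these libraries. Ifit1, an RNA-binding antiviral protein gene with the 2 ISRE cores shown, stood at 4.89 and 4.91 CPM with DSF and 6.61 and 6.28 with DSF+LPS. Both libraries with LPS were higher, yet the difference did not pass the test (1.32-fold, 0.40 ± 0.13 SE, adjusted p = 0.0641), whereas LPS alone raised Ifit1 from 5.48 and 5.93 to 233 and 214 CPM, 39-fold (5.29 ± 0.10 SE, adjusted p = 8.11e-14).

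Rsad2, encoding the antiviral enzyme viperin, rose from 28.3 and 28.4 to 40.7 and 34.5 CPM (1.33-fold, 0.41 ± 0.10 SE, adjusted p = 0.0151), against 524 and 487 with LPS alone. The ubiquitin-like Isg15 rose 1.72-fold, from 10.1 and 13.3 to 21 and 18.9 CPM. Gbp2, a guanylate-binding protein gene, rose 2.16-fold, from 0.951 and 1.29 to 2.47 and 2.35 CPM, and Gbp5, of the same family, did not pass the test at 0.362 and 0.671 against 0.656 and 0.546 CPM, although LPS alone took it to 56.8 and 54.1. Slfn1 had the highest fitted value of the list on 0 reads in both DSF libraries and did not pass the test. The 3 rises were lost without DSF replicate 1, with adjusted p of 0.107, 0.0515 and 0.131, and that of Rsad2 also without DSF+LPS replicate 1. In the opposite direction, Ifi47, an interferon-inducible GTPase, fell from 3.08 and 2.74 to 0.908 and 1.31 CPM (-1.40 ± 0.29 SE, adjusted p = 0.00777), where LPS alone raised it 2.98-fold. Trim30a fell from 15.2 and 13.6 to 10.2 and 10.2 CPM (-0.50 ± 0.11 SE, adjusted p = 0.0121) and rose 5.66-fold without the drug. Dtx3l, a ubiquitin ligase, fell from 11.6 and 11.8 to 6.41 and 7.64 CPM (-0.74 ± 0.13 SE, adjusted p = 0.00256), and Slfn5 from 2.58 and 2.74 to 1.51 and 1.69 CPM. Of these 4 falls, that of Dtx3l stood whichever library was left out, those of Ifi47 and Trim30a were lost without DSF replicate 1 (adjusted p = 0.0748 and 0.157), and that of Slfn5 without any of 6 libraries (up to 0.131).

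Upstream of these genes, 1 of 16 interferon receptor, STAT and IRF genes rose and none fell, with a median log2 change of 0.02 against 0.32 without the drug. The one was Stat3, 1.22-fold higher at 177 and 159 CPM, and its call was lost without DSF replicate 1 (adjusted p = 0.249) or DSF+LPS replicate 1. Irf7, which amplifies interferon production, overlapped between the groups at 39 and 46 and 54 and 42.7 CPM, against 216 and 204 with LPS alone. Ifnb1, the interferon-β gene, did not pass the filter on low counts and was not tested.

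The promoter letters were set against the response under DSF in genes chosen from the other 4 libraries. Of the 872 genes that LPS alone raised at least 2-fold, 580 had a promoter in the RefSeq table. Among those with a kB match and no ISRE core, 39 of 87 (44.8%) rose under DSF, with a median log2 change of 0.45, and among those with an ISRE core and no kB match 12 of 62 (19.4%), with a median of 0.11. Genes with neither had 141 of 423 (33.3%) raised and a median of 0.34, and the 8 with both had 2 raised. Without the drug, the response by which these genes were chosen, the medians were 1.90 for kB only, 2.62 for ISRE only and 1.96 for neither, an order unlike that under DSF. By list, 11 of 23 NF-kB genes with a promoter held a kB match and 23 of 45 interferon-stimulated genes an ISRE core. Genes share regulators and are not independent, and no test was made of these shares.

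**Figure D3:**
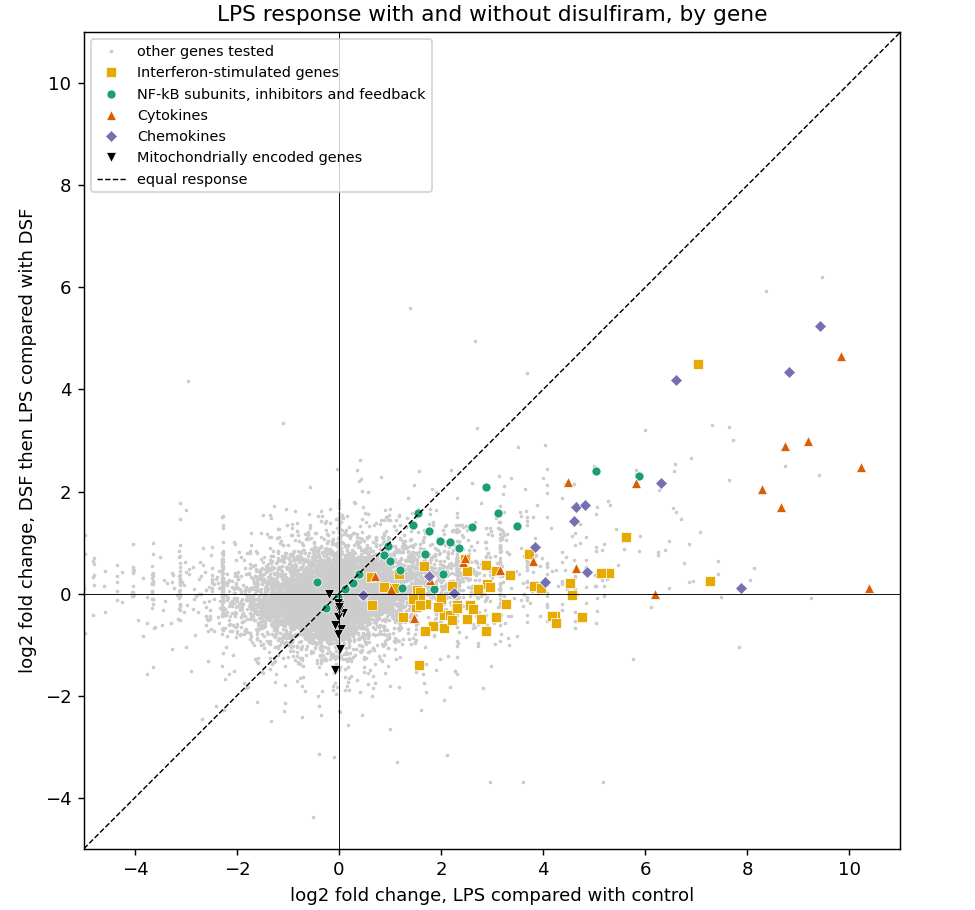
Log2 fold change of each of 16304 genes with LPS alone (x axis, against control) and under DSF (y axis, DSF+LPS against DSF), with members of 5 lists marked and the dashed line at equal response; 12 genes beyond the axes are not drawn. NF-kB genes spread from the line downward, most interferon-stimulated genes lie along zero on the y axis (the one near 4.49, Slfn1, has 0 reads in both DSF libraries), and the mitochondrially encoded genes lie below zero on the y axis only.

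Enzymes and secreted effectors of inflammation followed the cytokines: 12 of 27 tested rose and 1 fell, with a median log2 change of 0.60 against 2.37 without the drug. Acod1, which makes itaconate, rose from 15.3 and 17.5 to 302 and 469 CPM (23.5-fold, 4.55 ± 0.17 SE, adjusted p = 7.13e-10), and the DSF and control libraries started alike (15.2 and 17.7 in control), and LPS alone took it to 2273 and 2217. Saa3, an acute phase protein gene, rose from 7.88 and 12 to 47.5 and 77.1 CPM (6.31-fold, 2.66 ± 0.22 SE, adjusted p = 3.54e-06), against 906 and 827. Ptgs2, the cyclooxygenase COX-2, was already at 107 and 121 CPM with DSF against 13.7 and 12.1 in control, and rose to 349 and 385 (3.21-fold, 1.68 ± 0.08 SE, adjusted p = 6.71e-09), under the 1186 and 1218 of LPS alone. Mmp13, a collagenase gene, rose 4.66-fold, from 2.99 and 4.23 to 15.8 and 17.6 CPM. Nos2, the inducible nitric oxide synthase, rose on few reads (6 and 10 to 37 and 47), 5.63-fold (2.49 ± 0.40 SE, adjusted p = 0.00138), to 1.87 and 2.56 CPM against 114 and 113 with LPS alone. Pla2g4a, the cytosolic phospholipase A2, was the one to fall, from 92.5 and 77.7 to 62.8 and 58.9 CPM, a call lost without DSF replicate 1 (adjusted p = 0.0826). Cybb, the catalytic subunit of the phagocyte NADPH oxidase, did not pass the test at 143 and 149.9 against 152 and 155 CPM, where LPS alone raised it 5.17-fold. Without DSF replicate 1, 8 rises of the list passed.

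Antigen presentation and costimulation split by gene. Cd74, the invariant chain of MHC class II, rose from 591 and 624 to 1053 and 1164 CPM (1.83-fold, 0.87 ± 0.06 SE, adjusted p = 8.26e-07), above every other library, and rose 1.75-fold without the drug (from 289.9 and 283 to 508 and 498 CPM), a log2 difference of 0.06 ± 0.09 SE. Cd83, a maturation marker, rose from 6.2 and 6.56 to 19.4 and 21.1 CPM (3.17-fold), against 2.94-fold without the drug, a log2 difference of 0.11 ± 0.19 SE. The MHC class I genes H2-K1 and H2-D1 rose 1.54-fold and 1.4-fold, with 1.42-fold and 1.49-fold without the drug; they are similar in sequence, and how the authors' counting divided their reads is not known. The adhesion gene Icam1 rose 2.36-fold, from 76.6 and 87 to 195 and 191 CPM (1.24 ± 0.07 SE, adjusted p = 8.44e-08), and the costimulatory receptor Cd40 1.86-fold, from 67.8 and 76.1 to 123 and 145. Tap1, the peptide transporter that interferon raises, did not pass the test at 21.4 and 22.4 against 21.2 and 18.3 CPM, and rose 3.19-fold with LPS alone. These 6 rises among 25 tested genes, with no fall, stood without DSF replicate 1, and the list's median log2 change was 0.23 against 1.15 without the drug.

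Of 17 inflammasome and pyroptosis genes 5 rose and 3 fell, or 3 and 0 without DSF replicate 1, with a median log2 change of -0.10. Nlrp3, the sensor whose induction primes the inflammasome, rose from 80.7 and 74.6 to 209 and 271 CPM (3.08-fold, 1.63 ± 0.10 SE, adjusted p = 1.19e-07), against 619.7 and 616 with LPS alone. Casp4, which encodes caspase-11, the sensor of LPS inside the cell, rose from 10.4 and 10.4 to 23.1 and 25.4 CPM (2.34-fold, 1.22 ± 0.14 SE, adjusted p = 6.64e-05). The ATP-gated channel gene P2rx4 rose 1.44-fold, to 50 and 57.1 CPM. Casp8 fell from 39 and 38.3 to 31.1 and 28.9 CPM and Txnip, a thioredoxin-binding protein gene, from 104 and 83.3 to 69.6 and 65.2. Leaving out DSF replicate 1 ended the calls of P2rx4 (adjusted p = 0.0581), Casp8 (0.144) and Txnip (0.161), and Casp8 also lost its call without DSF replicate 2 or DSF+LPS replicate 2.

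With TMM scaling, the mitochondrially encoded messenger RNAs fell together under DSF and not without it. Of 13, 12 fell and none rose, with a median log2 change of -0.44, and none was called in either direction with LPS alone (median -0.02). The difference between the responses passed the test in 9, all negative. A share of all counts was taken over every gene with a symbol beginning mt-, a set not limited to these 13. It was 1.93% and 1.86% in the DSF libraries and 1.35% and 1.33% in the DSF+LPS libraries. In control it was 1.96% and 1.91%, and with LPS 1.66% and 1.81%. On these plain totals it was thus lower in both LPS libraries than in both control libraries too. The falls under DSF were unequal. mt-Nd6 stood at 155 and 112 CPM with DSF and 47 and 47.2 with DSF+LPS (-1.50 ± 0.13 SE, adjusted p = 5.7e-06); it is encoded on the strand opposite to the others, and with the handling of strand unknown, reads of the 2 strands cannot be told apart. mt-Nd3 fell from 32.9 and 33.5 to 17.4 and 13.9 CPM (-1.08 ± 0.14 SE, adjusted p = 0.000291). mt-Nd2 fell from 665 and 599 to 359 and 369 (-0.80 ± 0.08 SE, adjusted p = 1.25e-05), and mt-Nd1 from 1168 and 1109.6 to 743 and 668 (-0.69 ± 0.07 SE, adjusted p = 2.11e-05). All 4 encode subunits of complex I and kept their calls whichever library was left out. mt-Atp8, the one gene not called, overlapped between the groups at 9.46 and 13.3 and 8.53 and 14 CPM. Without DSF replicate 1, 8 of the 12 falls passed, and 12 under scaling by library size alone.

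**Figure D4:**
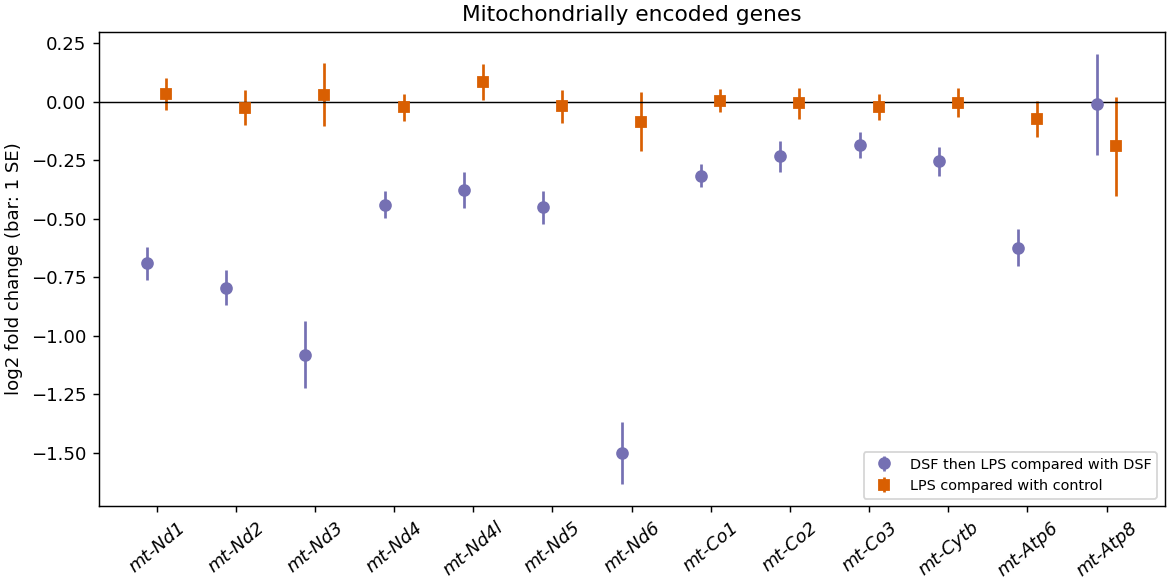
Log2 fold change of the 13 mitochondrially encoded genes (bars, 1 SE) in DSF+LPS compared with DSF (circles) and in LPS compared with control (squares). All circles but that of mt-Atp8, at -0.01, lie clearly below zero, by most in mt-Nd6 (-1.50), and squares lie around zero.

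Nuclear genes of oxidative phosphorylation did not share the fall: 8 of 29 rose and 1 fell, with a median log2 change of 0.14. Cox5b, a subunit of complex IV, rose from 20.5 and 24.1 to 33.6 and 31.5 CPM (1.46-fold, 0.55 ± 0.11 SE, adjusted p = 0.00709), and Cox4i1 1.29-fold, while Cycs, cytochrome c, fell from 36.5 and 37.1 to 31.8 and 24.2 CPM. No call of this list was made without DSF replicate 1 (adjusted p = 0.11 for Cox5b and 0.0759 for Cox4i1), that of Cycs was lost without any of 7 libraries (up to 0.306), and scaling by library size alone left 4 rises and 2 falls.

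The inducible HSP70 genes stood high in all DSF-treated libraries, and the heat shock list had calls in both directions with LPS. Of 24 heat shock genes 5 rose and 3 fell (3 and 5 by library size alone, none without DSF replicate 1). The inducible HSP70 genes Hspa1a and Hspa1b stood at 2687 and 3343 and at 8593 and 11043 CPM with DSF and at 5773 and 3813 and 17986 and 13407 with DSF+LPS, rises of 1.59-fold and 1.6-fold, while no library without the drug exceeded 20 CPM for either. The 2 genes are nearly identical, so the division of reads between them is uncertain. Hspa8, the constitutive family member, rose 1.27-fold. Their calls were lost without DSF replicate 1, with adjusted p of 0.109, 0.0781 and 0.0764. Of 31 genes of the integrated stress and unfolded protein responses 7 rose and 2 fell (3 and 4 by library size alone, none without DSF replicate 1). The transcription factor gene Cebpb rose 1.53-fold, from 181 and 196 to 235 and 339.9 CPM, and Ppp1r15a, the phosphatase subunit GADD34, 1.38-fold, from 354 and 452 to 586 and 524, losing their calls on that omission (adjusted p = 0.0863 and 0.157).

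Of 28 NRF2 targets, antioxidant genes, 5 rose and 2 fell (1 and 5 by library size alone, 1 rise without DSF replicate 1). Sqstm1, the autophagy receptor p62, rose from 3475 and 3454 to 4147 and 5331 CPM (1.37-fold, 0.45 ± 0.08 SE, adjusted p = 0.00404), against 1028 and 997 with LPS alone. Among 16 metal-handling genes 5 rose and 5 fell (2 rises without DSF replicate 1). Slc11a2, the iron importer DMT1, rose from 67.4 and 65.7 to 143 and 201 CPM (2.58-fold, 1.37 ± 0.12 SE, adjusted p = 4.48e-06), and the zinc importer gene Slc39a1 1.72-fold, to 48.6 and 57. Slc40a1, the iron exporter ferroportin, fell from 125 and 97.7 to 62.9 and 77.8 CPM, a call lost without DSF replicate 1 (adjusted p = 0.053), and it fell without the drug too (-1.23 on the log2 scale). For Slc11a2 and Slc39a1 the LPS responses with and without the drug differed by -0.40 ± 0.16 and -0.28 ± 0.13 SE, neither past the threshold.

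Of 30 cell cycle genes 10 fell, none rose and 20 did not pass the test (DESeq2 called 10 lowered and 2 raised), with a median log2 change of -0.12 against -0.25 without the drug, where 15 fell and 2 rose. Ccnd1, cyclin D1 of the G1 phase, fell from 158 and 131 to 73.1 and 73.6 CPM (-0.98 ± 0.09 SE, adjusted p = 6.03e-06), beside -1.01 without the drug, a difference of 0.03 ± 0.12 SE (from 351 and 359 to 182 and 170.5 CPM). Cenpe, a kinetochore motor gene, fell from 90 and 82.1 to 57.5 and 50.7 CPM (-0.67 ± 0.09 SE, adjusted p = 0.00028), whereas LPS alone raised it 1.26-fold. The falls of Ccne2 and Plk1, at -0.67 and -0.49, were lost without DSF replicate 1 (adjusted p = 0.169 and 0.229), that of Plk1 also without DSF+LPS replicate 1, and 3 falls of the list stood on that first omission. Of 19 p53 targets and CDK inhibitors 7 rose and 2 fell (3 and 1 without DSF replicate 1). The death receptor gene Fas, also a target of NF-kB, rose from 1.77 and 1.76 to 7.77 and 7.91 CPM (4.44-fold, 2.15 ± 0.18 SE, adjusted p = 4.6e-06), against 61.7 and 60.7 with LPS alone. Plk2 rose 1.56-fold, to 664 and 738 CPM, and Gadd45a 1.69-fold, a call lost without that library (adjusted p = 0.103). Cdkn1b, the CDK inhibitor p27, fell from 20.4 and 17.6 to 10.6 and 11.9 CPM (-0.76 ± 0.13 SE, adjusted p = 0.00229), beside -0.69 without the drug.

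Falls were ranked among called genes of at least 5 CPM whose libraries did not overlap between the groups, predicted genes and pseudogenes left out. The largest was that of Gpr183, the receptor that guides immune cells along oxysterols, from 7.88 and 5.68 to 2.42 and 2.35 CPM (-1.51 ± 0.19 SE, adjusted p = 0.000162). LPS alone lowered Gpr183 further in ratio, from 71.5 and 69.1 to 9.57 and 9.13 CPM, and the level with both agents was the lowest of the 4 groups. St8sia4, a polysialyltransferase gene, fell from 29.6 and 25.4 to 13.2 and 10.5 CPM (-1.21 ± 0.13 SE, adjusted p = 3.47e-05), and Fam78a from 16.2 and 10.2 to 4.44 and 6.55 (-1.28 ± 0.22 SE, adjusted p = 0.00231). Both also fell without the drug (-1.19 and -1.64), with differences of -0.02 ± 0.17 and 0.36 ± 0.29 SE that did not pass the test. The mitotic kinesin gene Kif18a fell from 14.9 and 11 to 4.84 and 7.37 CPM and Depdc1a, a gene of mitotic cells, from 6.16 and 5.84 to 2.42 and 2.78, where LPS alone gave -0.38 and 0.31 without passing the test. The chromatin reader gene L3mbtl3 fell from 11.5 and 10.1 to 3.99 and 5.84 CPM and the zinc finger gene Zfp946 from 6.34 and 8.06 to 3.03 and 2.95. All 7 kept their calls whichever library was left out. Among 21 tested P2Y, oxysterol and other surface receptors, Gpr183 was the one to fall and 4 rose (2 without DSF replicate 1). Gpr84, a receptor for medium-chain fatty acids, led them, from 3.26 and 2.84 to 20.1 and 25.9 CPM (7.49-fold, 2.90 ± 0.16 SE, adjusted p = 4.32e-08), against 169 and 169 with LPS alone.

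Metabolic and identity lists had few calls, near the background of 5.53% and 6.53% in several. The liver X receptor list exceeded both shares, and the macrophage identity list that of rises, on few genes. Of 28 glycolysis and hypoxia genes 3 rose and 2 fell (1 and 5 by library size alone, 1 and 1 without DSF replicate 1). Pkm, pyruvate kinase, rose 1.21-fold, and Egln1, an oxygen-sensing prolyl hydroxylase gene, fell from 44.1 and 39.8 to 29.3 and 27.7 CPM. Of 22 cholesterol synthesis genes 2 rose and 1 fell, and of 13 liver X receptor targets and cholesterol export genes 3 rose and 3 fell (none and 3 by library size alone). The desaturase gene Scd2 fell from 479 and 414 to 255 and 258 CPM (-0.80 ± 0.07 SE, adjusted p = 5.16e-06). The autophagy and lysosome list had 2 rises and 2 falls among 27 genes. Optn, an autophagy receptor, rose 1.64-fold, from 18.6 and 20.5 to 31.3 and 33 CPM, and the initiating kinase gene Ulk1 1.54-fold, from 53.2 and 56.6 to 85.6 and 83.4, whereas LPS alone lowered Ulk1 from 21.9 and 25.2 to 14 and 13.2. Among 11 aldehyde dehydrogenases, the enzyme family that DSF inhibits, Aldh2 rose 1.16-fold and none fell (none and 1 by library size alone). The call of Aldh2 was lost without DSF replicate 1 (adjusted p = 0.188) and without 6 other libraries, and on that first omission no cholesterol synthesis gene, 1 liver X receptor target (Scd2) and 2 autophagy genes passed. Of 27 macrophage identity genes 5 rose and 2 fell (2 and 5 by library size alone, 2 rises without DSF replicate 1).

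The 2 LPS responses were compared gene by gene by the interaction test, which asks whether the log2 response under DSF differs from that without it. It passed in 1236 genes with a positive difference (7.58%) and 1981 with a negative one (12.2%). Of the 872 genes that LPS alone raised at least 2-fold, 253 (29.0%) rose under DSF and 14 fell, with a median log2 change of 0.32 against 2.01 without the drug. The interaction was negative in 645 of them, but these genes were chosen for a large rise in the same LPS and control libraries, so that this count leans toward a smaller response under DSF. Counts by LPS or control level within the 872 share that choice, which favours high LPS and low control levels. The counts over all genes beside them were not chosen so and do not correct for it. In 598 of the 872 both DSF+LPS libraries were below both LPS libraries, beside 6443 of all 16304 genes. In 226 both were at or above the lower LPS library, beside 8235 of all genes, and in 225 of the 226 both DSF libraries exceeded both control libraries, beside 5854 of the 8235. Without DSF replicate 1, 156 of the 872 rose and 2 fell. Of the 594 genes that LPS alone lowered at least 2-fold, 86 (14.5%) fell under DSF and 5 rose, and the interaction was positive in 407, a count with the same lean. Chosen the other way, of the 1065 genes lowered under DSF it was negative in 453 and positive in 77, and of the 901 raised under DSF it was negative in 243 and positive in 123. These sets were chosen by change in the DSF and DSF+LPS libraries. That choice favours negative values in the first set and positive values in the second. Across all genes the 2 log2 responses correlated with a Pearson r of 0.287 (16304 genes, which are not independent replicates), given as a description. Conversely, 978 genes were called under DSF and not without it. A call in 1 response and none in the other does not itself show that the responses differed.

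Opposite calls in the 2 responses were made for 180 genes, 39 raised under DSF and lowered without, and 141 lowered under DSF and raised without. Tlr9, the endosomal receptor for bacterial DNA, stood at 15.6 and 17.4 CPM with DSF and 25.3 and 34.1 with DSF+LPS (1.8-fold, 0.85 ± 0.14 SE, adjusted p = 0.00186), while LPS alone took it from 17.1 and 17 to 10.8 and 10.1 (-0.70 on the log2 scale). Trem2, a lipid-sensing receptor gene, rose 1.19-fold under DSF, to 232 and 215 CPM, and fell from 232 and 224 to 112 and 106 without it, and the histone deacetylase gene Hdac5 rose 1.22-fold, to 74.8 and 67.1, and fell from 65.2 and 69 to 22.2 and 21.8. The rises of Trem2 and Hdac5 were lost without DSF replicate 1 (adjusted p = 0.294 and 0.326) and, for most other libraries, without each of those too, while that of Tlr9 stood in every such fit. These 3 were chosen after their values were seen. Among the largest positive differences between the responses were genes that LPS lowered without the drug. Slc26a11, an anion transporter gene, went from 26.8 and 26.9 CPM in control to 2.6 and 2.96 with LPS, and stood at 69.5 and 70.4 with DSF and 81.4 and 82.2 with DSF+LPS, a difference of 3.49 ± 0.15 SE, adjusted p = 9.27e-10. Adm, the vasodilator peptide adrenomedullin, went from 2.74 and 1.87 to 0.246 and 0.43 CPM without the drug and from 10.2 and 10.9 to 21.3 and 10.8 under it, with a difference of 3.34 ± 0.57 SE, adjusted p = 0.000715. Zfp395 fell in both settings, from 28.5 and 33.7 to 2.26 and 2.77 CPM without and from 8.65 and 8.21 to 5.7 and 4.86 with the drug, with log2 changes of -3.62 and -0.67, the latter a call lost without DSF replicate 1 (adjusted p = 0.14) or DSF+LPS replicate 2.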

How the data were processed

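Messenger RNA was sequenced in 8 libraries, 2 in each of 4 groups. The authors deposited raw gene counts (whole numbers) for all libraries; the submitters' processing notes name GRCm39 and DESeq2, while aligner, counting tool and strand setting were not given in the sources used. Genes whose reads an unknown counting rule could divide (near-identical copies, antisense pairs) are therefore uncertain. Of 55414 genes in the deposited count table, 16304 passed edgeR's filter (minimum count 10, minimum total 15). edgeR 4.0.16 in R 4.3.3 fitted 1 mean per group over all 8 libraries with TMM scaling, and the quasi-likelihood test with Benjamini-Hochberg adjustment called genes at an adjusted p under 0.05. The interaction was the response under DSF minus that without. Each SE was derived from the log2 fold change and its F statistic (|log2| over root F). The tests were tested on simulated data. Symbols came from GENCODE, names only, and promoters from RefSeq (GRCm38.p6), matched by symbol.

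The members and the gene lists were chosen with earlier results of these data known. Genes were named by a rule: a panel of 10, the 10 largest changes in each direction with at least 5 CPM in the higher group, up to 4 called members of each of 26 lists by size, and the 10 largest differences between responses in each direction. The largest changes were taken among called genes with no overlap between the libraries of the 2 groups. Predicted genes, pseudogenes and genes without a symbol were left out of the largest changes and differences. Not all genes named by the rule appear in the text. Casp8, Ccl2, Ccl3, Ccl4, Ccl9, Cybb, Egr1, H2-D1, H2-K1, Hdac5, Il10, Il1rn, Irak3, Irf7, Myd88, Nfkbib, Pla2g4a, Rela, Relb, Rsad2, Slfn1, Slfn5, Socs1, Tap1, Tlr9, Tnfaip2, Tnip3, Trem2, Trim30a, Txnip, Zfp36l2 and mt-Atp8 were added after their values were seen. Alternatives were library size or DESeq2 size factors as scaling, DESeq2 1.42.0, 2 other filters, a replicate block, fewer libraries and leaving out each library. Some results are not reported here.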

Additional observations from a re-analysis of the deposited data

Results flagged for a closer look

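For 84 of the genes named in the text the log2 LPS response under DSF differed from the one without DSF by the interaction test (edgeR, adjusted p under 0.05). The values below are the response under DSF minus the response without it, on the log2 scale, so that a negative value is a smaller rise, a larger fall, or a fall in place of a rise under the drug, and a positive value the reverse. Il12b, at 0 reads in both control libraries, is left out of them. Some others rest on few reads in a group, so that their size is uncertain. Gbp5, Il6 and Nos2 under DSF and Adm with LPS alone are examples.

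In the list of interferon-stimulated genes, this log2 difference was Gbp5 -7.02, Ifit1 -4.89, Rsad2 -4.73, Gbp2 -4.51, Slfn5 -3.61, Trim30a -3, Ifi47 -2.97, Isg15 -2.95 and Dtx3l -2.44. Among members of the list of cytokines, the log2 difference was Il1a -6.97, Lif -6.23, Il1b -6.19, Il6 -5.84, Csf3 -5.18, Il10 -4.14, Il1rn -3.17 and Tnf -2.29. The log2 difference, for the list of inflammatory enzymes and secreted effectors, was Nos2 -6.24, Mmp13 -5.41, Ptgs2 -4.86, Saa3 -4.25, Acod1 -2.53, Cybb -2.3 and Pla2g4a -0.607. Members of the list of chemokines had log2 differences of Cxcl2 -4.17, Cxcl10 -4.15, Ccl3 -3.19, Ccl5 -3.08, Ccl4 -2.96, Ccl2 -2.92 and Ccl9 -2.24. For the list of NF-kB subunits, inhibitors and feedback, the log2 difference was Traf1 -3.58, Nfkbiz -2.63, Tnfaip2 -1.76, Tnfaip3 -1.53 and Nfkbia -0.795. In the list of MAPK phosphatases, SOCS and mRNA decay factors, this log2 difference was Socs3 -5.03, Socs1 -3.55, Zc3h12c -1.9, Zc3h12a -1.6 and Zfp36l2 0.831. Among members of the list of TLR4 complex and proximal signalling, the log2 difference was Cd14 -2.5, Irak3 -2.25, Irak2 -1.6 and Ikbke -0.839. The log2 difference, for the list of immediate early genes, was Egr1 -2.11, Maff -1.43, Ier3 -1.26 and Junb -0.95. Members of the list of mitochondrially encoded genes had log2 differences of mt-Nd6 -1.42, mt-Nd3 -1.11, mt-Nd2 -0.77 and mt-Nd1 -0.723. For the list of inflammasome and pyroptosis, the log2 difference was Nlrp3 -2.05, Casp4 -1.76 and Casp8 -0.557.

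In the list of antigen presentation and costimulation, this log2 difference was Cd40 -2.67, Tap1 -1.82 and Icam1 -0.805. Among members of the list of p53 targets and CDK inhibitors, the log2 difference was Gadd45a -3.1, Fas -2.27 and Plk2 -1. The log2 difference, for the list of glycolysis and hypoxia, was Pkm 0.292 and Adm 3.34. Members of the list of nuclear-encoded oxidative phosphorylation had log2 differences of Cycs -0.671 and Cox5b 0.613. For the list of P2Y, oxysterol and other surface receptors, the log2 difference was Gpr84 -1.14 and Gpr183 1.4. In the list of interferon receptor, STATs and IRFs, this log2 difference was Irf7 -1.69 and Stat3 -0.703. Among members of the list of autophagy and lysosome, the log2 difference was Optn -0.946 and Ulk1 1.41. The log2 difference, for the list of aldehyde dehydrogenases, was Aldh2 0.425. Members of the list of cell cycle had log2 differences of Cenpe -1. For the list of heat shock genes, the log2 difference was Hspa1b 0.763. In the list of integrated stress and unfolded protein response, this log2 difference was Ppp1r15a -0.647. Among members of the list of metal-handling genes, the log2 difference was Slc40a1 0.565. The log2 difference, for the list of NRF2 targets, was Sqstm1 -0.795. Members of the list of macrophage identity had log2 differences of Trem2 1.32. For genes on no list, the log2 difference was Depdc1a -1.52, Tlr9 1.55, Hdac5 1.9, Zfp395 2.95 and Slc26a11 3.49.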

How the results depend on the processing

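Of 118 genes followed, nearly all named in the text, 69 kept their direction and their side of the threshold under every alternative run. The counts of genes called in DSF+LPS compared with DSF changed most. Scaling by library size alone gave 464 raised and 2190 lowered (17.5% of calls upward, against 45.8% with TMM), and for LPS compared with control 1614 and 3774. The 4 DSF-treated libraries alone gave 324 raised and 200 lowered (61.8% upward). Leaving out 1 library gave 250 to 1194 raised and 149 to 1212 lowered under DSF, the lowest of each without DSF replicate 1, with 62.7% upward. It gave 1429 to 2813 lowered by LPS alone, and 719 to 1753 positive and 1284 to 2067 negative interaction values, the lowest of these without LPS replicate 2. The cause was not tested. DESeq2 called 1071 raised and 916 lowered. With 2 libraries a group, leaving 1 out assumes that the lone library varies like the other groups.

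Small log2 fold changes under DSF, none of them past the threshold, reversed sign. Library size alone gave -0.093 for Ccl9, -0.038 for Cybb and -0.0099 for Tnfaip2. mt-Atp8 was 0.0042 with DESeq2 size factors and 0.0030 with DESeq2. Leaving out 1 library gave -0.070 to 0.11 for Ccl9, -0.14 to 0.74 for Gbp5, -1.14 to 1.43 for Il12b, -0.22 to 0.017 for Ly96 and -0.38 to 0.30 for mt-Atp8.

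Replicate numbers did not pair the samples: deviations of same-numbered libraries correlated at -0.119 between DSF and DSF+LPS and at 0.0365 to 0.0531 between the other groups. With the replicate block, 1020 genes were raised and 1109 lowered under DSF, and none of the 118 genes changed its call. A block on crossed numbers over the 4 DSF-treated libraries, chosen after seeing the data, called 1197 and 1118.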
